A study of Xenopus laevis with 90 samples.

Results

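The window depletion of H3K4me3 (trimethylation of lysine 4 on histone H3) was examined at 7.5 hours post fertilization (hpf) in *Xenopus laevis* embryos, in the 12 of 90 libraries in which treated and control embryos with auxin were sequenced at that time, 256-cell stage plus 3 hr. Treated +IAA embryos had received mRNA for the mouse demethylase Kdm5bwt (11 ng), for H3.3K4M, a histone H3.3 whose lysine 4 is replaced by methionine (345 pg), and for the plant auxin receptor TIR1 (5 ng). Control +IAA embryos had received mRNA for a catalytically inactive Kdm5bci (4 ng), for H3.3wt (345 pg) and for TIR1 (5 ng). Both were moved to 500 µM auxin (IAA) at the 256-cell stage, 4.5 hpf, where TIR1 marks the tagged injected proteins for degradation, so that demethylation is meant to be limited to the cleavage divisions before zygotic genome activation. Wild-type (wt) embryos were neither injected nor given auxin. Each library is a pool of 3 sibling embryos, and each group has 3 pools from frog 1 and 3 from frog 2. The pools of a frog are technical replicates of 1 clutch, the 2 frogs are the biological replicates, and each frog was analysed on its own. The paper chose the mRNA amounts so that the injected proteins reached equal levels before genome activation. Since total injected mRNA differs between treated and control embryos by design, the mRNA dose, the demethylase activity and the H3.3 mutation cannot be told apart. In whole embryos, fewer cells of a type and less RNA per cell cannot be told apart either.

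H3K4me3 marks the promoters of active genes and of genes poised for transcription. KDM5 enzymes remove it, and lysine-to-methionine H3 interferes with its deposition. In *Xenopus* the genome is largely silent through the cleavage divisions, after which maternal factors switch on the zygotic programme that sets up mesoderm, endoderm, neural and epidermal fates. *Xenopus laevis* is allotetraploid, so that many genes exist as an L and an S copy, which carry those letters as suffixes here.

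Levels are given in TPM, a share of all transcripts of a library, corrected for transcript length. A log2 change is the difference of group means of log2(TPM + 1), treated minus control, with its SE, and it understates the change of genes at low TPM. The SE comes from the spread of a gene pooled over all groups and stages of its frog, not from the pools compared alone. A gene is called lower or higher where the Benjamini-Hochberg adjusted p of the limma fit across all genes is under 0.05. A gene was tested where 3 or more libraries of the frog reached 1 TPM, which left 20891 genes in frog 1 and 20277 in frog 2, of which 19581 were tested in both.

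The injected constructs carry *Xenopus* globin untranslated regions, and the globin gene *hbg1.L* served as their readout. It had 19228, 15234 and 24286 TPM in treated pools of frog 1, against 10717, 11809 and 6696 TPM in control pools. Its wt pools there had 0.678, 0.185 and 0.398 TPM. In frog 2 the same gene stood at 8261, 8028 and 3853 TPM in treated pools and at 3819, 1844 and 5194 TPM in control pools. There the wt pools had 0.282, 0 and 0 TPM. The ranges of treated and control pools were apart in frog 1 and overlapped in frog 2. The differences were not called (1.02 ± 0.35, adjusted p = 0.35, and 0.93 ± 0.42, adjusted p = 0.31). Ribosomal RNA held 6.12 to 8.19% of TPM in treated pools and 6.30 to 7.53% in control pools of frog 1. In frog 2 it held 3.38 to 4.18% against 2.36 to 3.18%, and the ranges were apart. The frog's own *kdm5b.S* did not pass the test in either frog (0.06 ± 0.12 and 0.08 ± 0.10). Of 30 copies of germ layer markers, 0 in frog 1 and 2 in frog 2 were under 1 TPM in all 6 libraries, as were 42 of 49 and 41 of 46 copies of differentiated tissue markers (0 of 7 tested copies of those were called in frog 1, with 0 at an unadjusted p under 0.05 by limma, and 2 of 5 were lower in frog 2). Germ layer markers were lower in 4 of 30 copies in frog 1 and 7 of 28 in frog 2, with 1 higher there, and their medians were −0.14 and −0.04.

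In frog 1, window depletion left 121 genes lower (0.579% of all tested) and 9 higher (0.0431%). In frog 2 it left 379 genes lower (1.87%) and 259 higher (1.28%). The median change over all genes was 0.06 in frog 1 and 0.03 in frog 2, with 32.1% and 39.2% of genes below 0. In 120 of the lower genes of frog 1 (0.574% of all tested) and 366 of frog 2 (1.81%), every treated pool lay below every control pool. Where levels were rescaled by the median ratio of abundant genes, frog 1 had 240 lower against 130 higher genes and frog 2 had 643 lower against 674 higher genes. The 6 libraries on their own gave 5 lower and 3 higher genes in frog 1, and in frog 2 the same fit gave 30 lower and 11 higher genes. Without treated pool 1 of frog 1, 48 genes were lower and 4 higher, while 18 were higher without treated pool 2. In frog 2, leaving out control pool 2, treated pool 1 or treated pool 2 left 199, 214 or 227 genes lower and 67, 76 or 74 higher, and without treated pool 3, 427 were higher.

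The frogs shared 48 lower genes, which are 46.6% of the 103 lower genes of frog 1 that were tested in both and 12.9% of the 373 of frog 2. Of the 103, 92 had a change below 0 in frog 2, where 39.1% of all genes did. Of the 373, 327 were below 0 in frog 1, where 31.4% of all genes were. Only 2 higher genes were shared (22.2% of 9 and 0.8% of 250), and 1 gene, *tril.S*, was called in opposite directions (lower in frog 1 and higher in frog 2). Of the 48, 47 are annotated as protein-coding and the last, *XB22064002.S*, was not matched to the annotation. In 47 the treated and control pools did not overlap in either frog, which follows largely from their calls on these same pools. Among all lower genes, 120 of 121 in frog 1 and 366 of 379 in frog 2 did not overlap either. The exception among the 48 was *rgs16.S*, a regulator of G-protein signalling, in which the treated pools of frog 2 at 1.0, 0.355 and 0.199 TPM overlapped the control pools at 0.949, 1.2 and 1.89 TPM. The median of the 48 was a change of −1.05 in frog 1 and −0.85 in frog 2, which follows from their choice. All 48 stayed below 0 under every alternative fit that tested them. This was largely fixed in advance, since pools did not overlap in 47 and several of the fits keep the same log2 changes. Not all stayed called. A fit of the 6 libraries alone called 0 in frog 1 and 7 in frog 2, and a pseudocount of 0.1 TPM 8 and 21. The fit of treated +IAA, control +IAA and wt at 7.5 hpf (18 libraries over both frogs, each frog fitted on its own) called 3 and 38. Leaving out single libraries, 24 to 46 of the 48 remained called in frog 1, fewest without treated pool 1, and 36 to 46 in frog 2. Genes called with 1 sign in both frogs numbered 25 instead of 50 without treated pool 1 of frog 1. The call in both frogs was kept whichever pool was missing by 15 genes, among them *a2m.S*, *akap12.L*, *alpl.L*, *crx.S*, *epha4.L*, *fam83b.S*, *frzb.S*, *gatm.L*, *has2.L*, *has2.S*, *lpar2.L*, *pcdh8.2.L*, *pcdh8.2.S* and *wnt8a.L*. Such losses are given below for some genes only, and other named calls were also lost without single libraries.

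**Figure D1:**
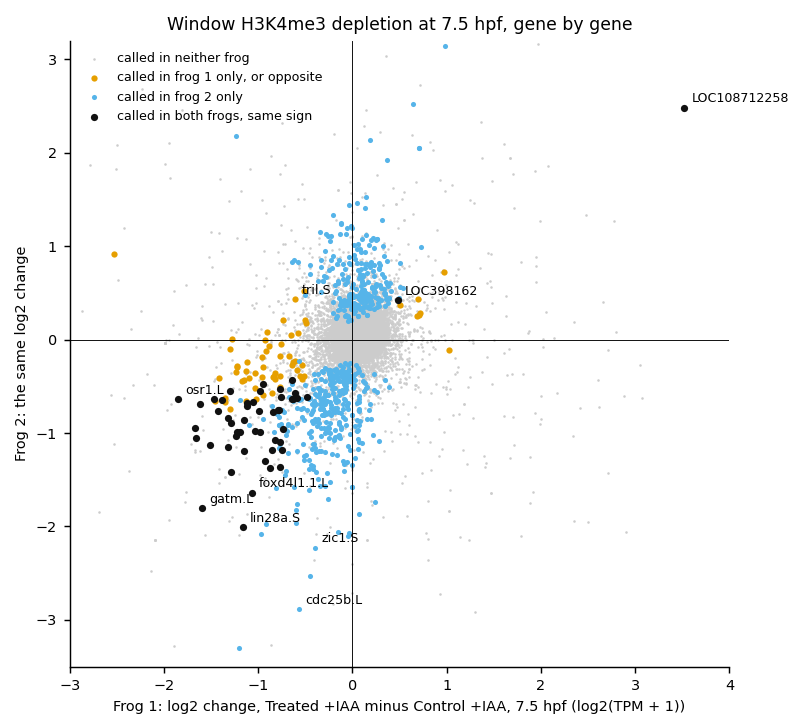
Each point is 1 of 19568 genes tested in both frogs (13 more lie outside the axes), with its log2 change, treated +IAA minus control +IAA at 7.5 hpf, in frog 1 (x axis) and frog 2 (y axis). The 48 shared lower genes fill the lower left, *LOC108712258* and *LOC398162* are the shared higher genes, and *cdc25b.L* and *zic1.S* lie far down on the axis of frog 2 only.

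The enzyme that opens creatine synthesis had the most negative mean change of the 48. *gatm.L*, glycine amidinotransferase (chromosome 3L, positions 110666632 to 110688685, assembly v10.1), had 1.41, 4.6 and 1.78 TPM in treated pools, against 9.73, 9.55 and 8.17 TPM in control pools of frog 1. In frog 2 it had 1.0, 1.52 and 1.79 TPM in treated pools, against 5.53, 8.89 and 8.37 TPM in control pools. In both frogs every treated pool was under every control and wt pool (−1.60 ± 0.18 in frog 1, adjusted p = 9.8e-07, and −1.81 ± 0.27 in frog 2, adjusted p = 8.3e-05). The creatine transporter gene *slc6a8.S* was also lower, with 0.597, 0.893 and 1.11 TPM in treated pools, against 3.01, 2.42 and 2.67 TPM in control pools of frog 1. In frog 2 the transporter had 0.264, 0.332 and 0.244 TPM in treated against 1.24, 1.02 and 1.27 TPM in control pools. *pygm.S*, for the enzyme glycogen phosphorylase, was another of the 48 (−0.78 ± 0.16 and −0.76 ± 0.16). In the list of oxidative, creatine and core metabolism genes 4 of 26 tested members were lower in frog 1 and 3 of 25 in frog 2, with medians of −0.04 and 0.01. The glucose transporter copies *slc2a1.L* (−1.10 ± 0.19) and *slc2a1.S* (−0.61 ± 0.13) were called lower in frog 1, and were −0.41 ± 0.15 and −0.23 ± 0.13 in frog 2, short of the threshold.

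Among pluripotency factors, *lin28a.S*, an RNA-binding protein that holds back let-7 maturation, had 3.06, 5.75 and 4.00 TPM in treated pools, against 8.83, 11.3 and 11.7 TPM in control pools of frog 1 (−1.16 ± 0.23). Its frog 2 levels were 1.41, 1.74 and 4.48 TPM in treated pools, against 9.36, 15.7 and 12.6 TPM in control pools (−2.01 ± 0.29). *pou5f3.1.L*, an Oct4-related POU factor, stood at 11.7, 25.3 and 13.2 TPM in treated pools, against 29.9, 33.4 and 26.5 TPM in control pools of frog 1. In frog 2, *pou5f3.1.L* had 5.69, 5.01 and 6.25 TPM in treated pools, against 13.8, 19.0 and 16.1 TPM in control pools. In frog 1 *lin28a.S* was not called without treated pool 1, and *pou5f3.1.L* was not called without control pool 1, control pool 2, treated pool 1 or treated pool 3. Over the whole list of genome activators and pluripotency factors, 3 of 45 members were lower in frog 1 and 11 of 45 in frog 2, none higher, with medians of 0.01 and −0.08. The more abundant *pou5f3.2.L* had 147, 140.3 and 153 TPM in treated pools, against 194, 220.4 and 224 TPM in control pools of frog 2 (−0.53 ± 0.13, called). That call was kept in 2 of 6 fits with 1 library left out. In frog 1, *pou5f3.2.L* had 229.7, 257 and 234 TPM in treated pools, against 350.1, 323 and 294 TPM in control pools (−0.42 ± 0.12, adjusted p = 0.17). Its S copy was called in frog 2 (−0.69 ± 0.13) and was −0.39 ± 0.15 in frog 1. The HMG-box factor copies *sox3.L* and *sox3.S* were lower in frog 2 (−0.38 ± 0.08 and −0.40 ± 0.10) and near 0 in frog 1 (0.10 ± 0.09 and 0.01 ± 0.10). Of 6 fits with 1 library left out, 5 kept the frog 2 call of *sox3.L* and 2 that of *sox3.S*. The maternally supplied *vegt.L* (−0.24 ± 0.13 and 0.06 ± 0.11), *foxh1.L* (0.21 ± 0.12 and −0.05 ± 0.08) and *ctcf.L* (0.03 ± 0.12 and 0.02 ± 0.09) did not pass in either frog.

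Of the neural list, 6 of 40 tested members were lower in frog 1, while 11 of 42 were lower and 1 higher in frog 2, with medians of −0.17 and −0.29. *foxd4l1.1.L*, a forkhead factor of the early neuroectoderm, had 2.40, 4.01 and 1.61 TPM in treated pools, against 6.34, 4.92 and 8.40 TPM in control pools of frog 1. In frog 2, *foxd4l1.1.L* had 2.37, 2.17 and 5.33 TPM in treated pools, against 10.6, 13.0 and 11.5 TPM in control pools. Its call in frog 1 was lost without control pool 1, control pool 3, treated pool 1 or treated pool 3, and also under a replicate block, whereas in frog 2 it was called without any single library. The control pools of frog 1 were themselves far under the 23.3, 24.0 and 22.2 TPM of wt pools there. *crx.S*, an Otx-family homeobox gene, was lower too (−1.32 ± 0.18 and −1.15 ± 0.17). The 1 higher gene in frog 2 was the eye-field homeobox gene *rax.L* (8.04, 6.03 and 3.46 TPM in treated pools, 1.75, 2.28 and 3.52 TPM in control pools and 0, 0.0419 and 0.307 TPM in wt pools of frog 2). Its treated and control pools overlapped, and 2 of 6 fits with 1 library left out kept the call.

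The mesoderm list held 6 of the 48, the most of any list by number, with 52 members tested in frog 1 and 44 in frog 2. The smaller adhesion list held 5, with 31 and 27 tested, which is a larger share. The T-box gene *tbxt.S* (Brachyury), which specifies posterior mesoderm, had 3.60, 11.4 and 6.57 TPM in treated pools, against 13.6, 15.0 and 19.2 TPM in control pools of frog 1. In frog 2, *tbxt.S* had 1.84, 1.97 and 1.99 TPM in treated pools, against 5.02, 6.05 and 6.01 TPM in control pools. Its frog 1 call was lost without control pool 3 or treated pool 1. Treated pools stayed below control pools and control pools below the wt pools, at 30.4, 28.4 and 20.9 TPM in frog 1 and 11.0, 8.96 and 9.77 TPM in frog 2. The ligand *wnt8a.L*, which patterns ventral and lateral mesoderm, had 16.3, 25.9 and 20.4 TPM in treated pools, against 43.7, 45.1 and 56.5 TPM in control pools of frog 1 (−1.19 ± 0.18). In frog 2, *wnt8a.L* had 9.14, 9.35 and 8.34 TPM in treated pools, against 15.5, 19.2 and 22.2 TPM in control pools (−0.99 ± 0.20). Here control pools and wt pools overlapped in both frogs. The Wnt receptor *fzd7.S* (−0.79 ± 0.17 and −0.75 ± 0.16) and the T-box gene *tbx6.L* (−0.76 ± 0.15 and −0.61 ± 0.15) were lower as well. Of the FGF feedback phosphatases, *dusp5.S* was lower in both frogs (−0.65 ± 0.15 and −0.64 ± 0.14) and *dusp6.S* was called in frog 1 and not in frog 2 (−0.83 ± 0.16 there, and −0.42 ± 0.15 in frog 2). The frog 1 call of *dusp5.S* was kept in 2 of 6 fits with 1 library left out. In all, 11 of 52 mesoderm, T-box and FGF genes were lower in frog 1 and 11 of 44 in frog 2, with medians of −0.35 and −0.32. Over all genes the medians were 0.06 and 0.03, with 0.579% and 1.87% lower. Protein-coding genes that rose in wt embryos of both frogs, described below, had medians of −0.28 and −0.44, with 13.7% and 39.9% lower. The same backgrounds apply to the neural, adhesion, organizer and endoderm lists, so these counts are not particular to 1 list. Frog 2 also had 2 higher members, the ligand *fgf20.S* (0.59 ± 0.16) and the immediate-early factor *egr1.S* (0.85 ± 0.15), which were −0.19 ± 0.17 and −0.62 ± 0.20 in frog 1 and not called there. Further mesodermal and kidney-field regulators outside that list were among the 48. *osr1.L*, an odd-skipped zinc-finger factor, had 1.12, 4.30 and 1.3 TPM in treated pools, against 9.82, 9.60 and 9.51 TPM in control pools of frog 1, the most negative change of that frog among the 48 (−1.85 ± 0.22). In frog 2 its controls were near 1 TPM (0.0915, 0.353 and 0.263 TPM in treated against 0.674, 0.987 and 1.11 TPM in control pools, −0.64 ± 0.16). Its relative *osr2.L* (−1.61 ± 0.21 and −0.69 ± 0.19) and the LIM homeobox gene *lhx1.L* (−1.12 ± 0.22 and −0.67 ± 0.15) were lower too. The frog 2 call of *osr2.L* was kept in 1 of 6 fits with 1 library left out.

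**Figure D2:**
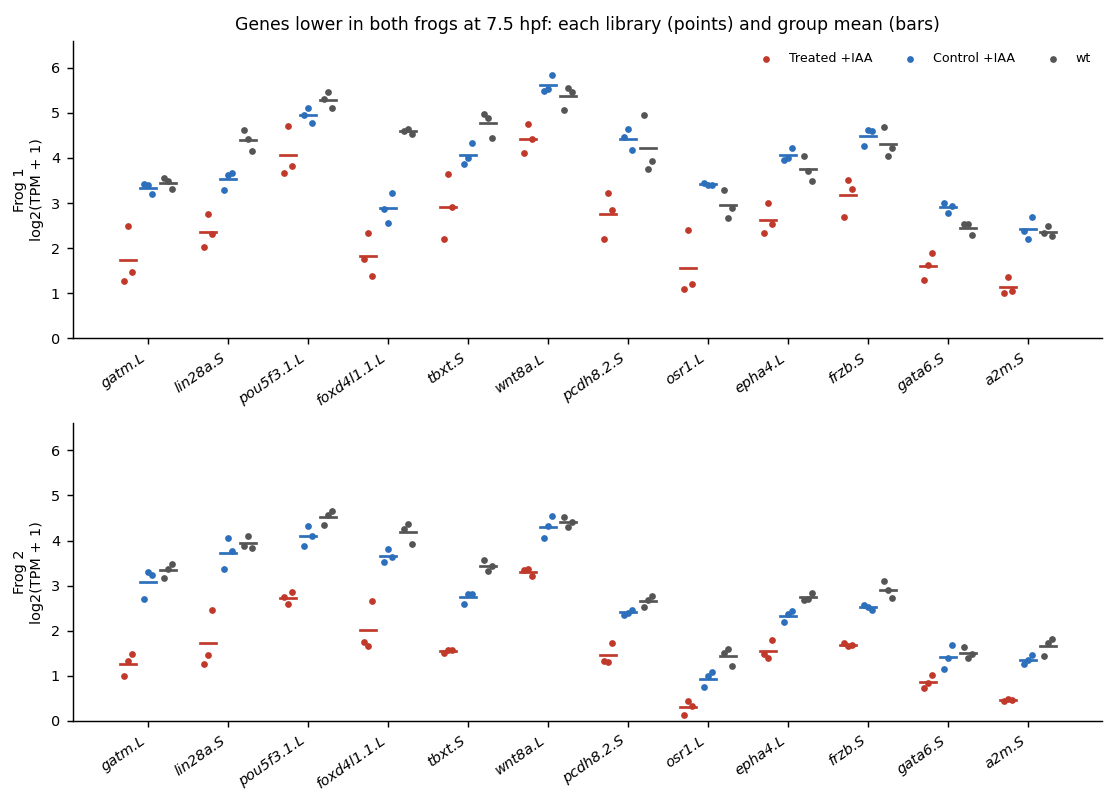
Level of 12 shared lower genes in log2(TPM + 1), frog 1 above and frog 2 below, with 1 point per library and a bar at the group mean for treated +IAA, control +IAA and wt. Treated pools lie under the control pools of their frog in each gene shown, whereas the gap between control and wt differs from gene to gene, widest for *foxd4l1.1.L* in frog 1.

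Of the adhesion genes, 9 of 31 were lower in frog 1 and 7 of 27 in frog 2, none higher, with medians of −0.03 and −0.19. *pcdh8.2.L* and *pcdh8.2.S* are copies of a protocadherin that acts in convergent extension. The S copy had 3.59, 8.38 and 6.2 TPM in treated pools, against 20.9, 24.0 and 17.2 TPM in control pools of frog 1 (−1.67 ± 0.23). In frog 2, *pcdh8.2.S* had 1.53, 1.46 and 2.31 TPM in treated pools, against 4.11, 4.28 and 4.53 TPM in control pools (−0.95 ± 0.16). The L copy changed by −1.66 ± 0.23 and −1.06 ± 0.20. *epha4.L*, a receptor for ephrins, had 4.04, 7.04 and 4.83 TPM in treated pools, against 14.6, 15.0 and 17.5 TPM in control pools of frog 1. In frog 2, *epha4.L* had 1.78, 1.62 and 2.49 TPM in treated pools, against 3.54, 4.14 and 4.40 TPM in control pools. The gene of its ligand, *efnb2.S*, was lower in both frogs (−0.98 ± 0.14 and −0.55 ± 0.14), although 2 of 6 fits with 1 library left out kept the call in frog 2. *flrt3.S*, a transmembrane protein that modulates cadherin adhesion and FGF signalling, fell by 1.15 and 0.86 on the log2 scale. Abundant maternal cadherin sat among the members that did not pass, with *cdh3.L* at 146, 124 and 151 TPM in treated and 126, 139.5 and 137 TPM in control pools of frog 1. Beyond the list, further members of the 48 are described for their known roles at the cell surface, and both copies of the hyaluronan synthase gene were lower. *has2.S* had 4.35, 8.48 and 4.64 TPM in treated pools, against 13.2, 15.0 and 15.2 TPM in control pools of frog 1. In frog 2, *has2.S* had 2.50, 2.75 and 2.97 TPM in treated pools, against 4.92, 7.25 and 7.26 TPM in control pools. *has2.L* changed by −0.99 ± 0.15 and −0.98 ± 0.19. *akap12.L*, a scaffold for protein kinase A, was lower (−1.51 ± 0.16 and −1.13 ± 0.16). So was *cass4.L*, a docking protein of focal adhesions (−1.24 ± 0.21 and −1.03 ± 0.23), and *cxcr4.L*, the receptor of the chemokine CXCL12 (−0.74 ± 0.17 and −0.96 ± 0.19). The receptor of lysophosphatidic acid *lpar2.L* (−0.85 ± 0.15 and −0.78 ± 0.14) and the guidance ligand *sema3f.L* (−0.63 ± 0.12 and −0.63 ± 0.11) were lower too. The other shared genes included *prdm1.L*, a zinc-finger repressor (−0.82 ± 0.20 and −1.08 ± 0.16), *alpl.L*, an alkaline phosphatase (−1.11 ± 0.16 and −0.71 ± 0.12), *kirrel2.L*, an immunoglobulin-family adhesion protein (−0.75 ± 0.18 and −1.19 ± 0.13), and *plekhg5.S* (−1.47 ± 0.17 and −0.64 ± 0.15). *cnn2.S* (calponin), *upk2.S* (uroplakin), *rgs1.L*, *fam83b.S* and 4 genes named only by locus or provisional symbol (*LOC108696199*, *LOC397829*, *LOC108717283* and *XB22064002.S*) belonged to the set too.

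Of 33 organizer genes tested in each frog, 9 were lower in frog 1 and 12 in frog 2, 2 of them in both, and 0 were higher. The secreted Wnt antagonist *frzb.S* had 5.49, 10.46 and 8.87 TPM in treated pools, against 18, 23.6 and 23.2 TPM in control pools of frog 1. In frog 2, *frzb.S* had 2.32, 2.14 and 2.23 TPM in treated pools, against 4.97, 4.80 and 4.52 TPM in control pools (−1.32 ± 0.20 and −0.83 ± 0.19). In frog 1 the homeobox genes *gsc.L* (−1.13 ± 0.24), *otx2.L* (−1.46 ± 0.22) and *hhex.L* (−1.17 ± 0.23) were called. So were the gene of the secreted inhibitor *cer1.S* (−1.22 ± 0.22) and the forkhead genes *foxa4.L* (−0.95 ± 0.20) and *foxa4.S* (−1.13 ± 0.22). The frog 2 changes of these 6 genes ranged from −0.65 for *foxa4.S* to −0.28 for *cer1.S*, below 0 but not called. The other copy of *hhex*, *hhex.S*, was called lower in frog 2, and 1 of 6 fits with 1 library left out kept that call. In frog 1, *gsc.L* and *foxa4.L* were each called in 3 of 6 fits with 1 library left out. In frog 2 the BMP antagonist *nog.L* (−1.19 ± 0.22) and the Wnt antagonist *dkk1.L* (−1.34 ± 0.24) were called. So were the notochord homeobox gene *not.L* (−0.74 ± 0.13) and the LIM homeobox genes *lhx5.L* (−1.57 ± 0.24) and *lhx5.S* (−1.42 ± 0.19). The medians of the list were −0.39 and −0.59, the most negative list median of frog 2. Whether the frogs differ in these genes was not tested, since their tables were made separately.

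More endoderm genes were called in frog 1 than in frog 2. *gata6.L*, a zinc-finger factor of endoderm and cardiac mesoderm, had 0.711, 0.961 and 0.762 TPM in treated pools, against 5.04, 4.17 and 4.31 TPM in control pools there, with the smallest adjusted p among the named lower genes (−1.60 ± 0.10, adjusted p = 4.9e-13). It was too low to be tested in frog 2 (0.321, 0.196 and 0.273 TPM in treated and 0.614, 0.894 and 0.942 TPM in control pools). *gata6.S* and *gata5.L* were lower in both frogs (−1.30 ± 0.16 and −0.55 ± 0.14; −0.95 ± 0.20 and −0.48 ± 0.13). With 1 library left out, the frog 2 call was kept in 2 of 6 fits for *gata6.S* and 1 of 6 for *gata5.L*. *gata4.S* had 3.2, 6.2 and 6.69 TPM in treated pools, against 16.9, 15.3 and 12.3 TPM in control pools of frog 1 (−1.36 ± 0.18). The wt pools at 8.94, 7.83 and 5.42 TPM lay below the control pools and overlapped the treated pools. The change of *gata4.S* in frog 2 was not called (−0.63 ± 0.19). *sox17a.L*, a driver of endoderm fate, had 47.2, 58.4 and 68.6 TPM in treated pools, against 99.0, 98.1 and 118 TPM in control pools of frog 1 (−0.86 ± 0.19). In frog 2, *sox17a.L* had 27.7, 30.2 and 32.7 TPM in treated pools, against 44.8, 41.3 and 50.0 TPM in control pools (−0.57 ± 0.17, adjusted p = 0.068). Without control pool 3 or treated pool 1 *sox17a.L* was not called in frog 1. The endoderm genes *mixer.L* (−0.40 ± 0.16 and 0.54 ± 0.20) and *sox17b.1.L* (−0.47 ± 0.20 and 0.17 ± 0.14) did not pass in either frog. In frog 2 the ligand *nodal.L* (−0.65 ± 0.16), its cofactor *gdf3.S* (−0.63 ± 0.16) and its antagonist *lefty.S* (−1.0 ± 0.16) were lower. The Nodal and endoderm list held 11 lower of 49 in frog 1 and 5 lower of 45 in frog 2, none higher, with medians of −0.40 and −0.18.

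As over all genes (0.579% lower in frog 1 and 1.87% in frog 2), more BMP pathway and ectoderm genes were called in frog 2 than in frog 1. Of 31 BMP and ventral genes 9 were lower and 1 higher there, against 3 lower of 36 in frog 1, with medians of −0.32 in frog 2 and −0.18 in frog 1. The shared gene was *ventx1.1.S*, a homeobox gene downstream of BMP, with 12.2, 8.31 and 10.6 TPM in treated pools, against 22.5, 15.2 and 31.2 TPM in control pools of frog 1. In frog 2, *ventx1.1.S* had 6.46, 7.77 and 7.75 TPM in treated pools, against 10.8, 17.3 and 19.2 TPM in control pools. With 1 library left out, *ventx1.1.S* kept its call in frog 1 only without control pool 2, and in frog 2 it was called each time. The ligand genes *bmp4.L* (−0.52 ± 0.13), *bmp4.S* (−0.73 ± 0.18) and *bmp7.2.L* (−0.90 ± 0.17) and the BMP targets *id3.L* (−0.74 ± 0.18) and *id3.S* (−0.89 ± 0.22) were lower in frog 2. Of 6 fits with 1 library left out, 2 kept the call for each copy of *bmp4* and *id3*, and 6 for *bmp7.2.L*. Another ligand gene, *bmp2.L*, was higher (21.2, 22.8 and 18.6 TPM in treated and 16.9, 14.0 and 14.5 TPM in control pools of frog 2). In the non-neural ectoderm list 1 of 36 was lower in frog 1 and 5 of 33 in frog 2, where *dlx5.S*, a distal-less homeobox gene, had 1.81, 2.39 and 3.05 TPM in treated pools, against 8.23, 8.79 and 8.57 TPM in control pools (−1.50 ± 0.21). The medians of that list were 0.01 in both frogs. The keratin gene *krt70.S*, which is not on the list, was lower in both frogs, at 4.07, 4.58 and 4.66 TPM in treated and 6.91, 7.02 and 11.4 TPM in control pools of frog 1. In frog 2, *krt70.S* had 8.57, 6.70 and 11.9 TPM in treated pools, against 19.3, 32.7 and 23.0 TPM in control pools. Without control pool 3, treated pool 1 or treated pool 3 it was not called in frog 1.

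Early zygotic markers, the first genes transcribed in the blastula, had 2 lower and 2 higher of 32 in frog 1 (*1a11.L* and *wnt8a.L* lower, *btg5.1.L* and *btg5.1.S* higher) and 11 lower of 32 in frog 2, with medians of −0.22 and −0.35. Of 6 fits with 1 library left out, 1 kept the call of *1a11.L* and 3 that of each *btg5.1* copy. The medians of the remaining lists lay close to that of all genes. Among maternal and oocyte genes frog 1 had 0 lower and 1 higher of 83, and frog 2 had 5 lower and 4 higher, with medians of 0.07 and 0.08. The higher ones were *cpeb1.L* in frog 1 (0.51 ± 0.12) and *cpeb1.S* in frog 2 (0.45 ± 0.12), which direct cytoplasmic polyadenylation of maternal mRNA. In frog 2 they also included *btg4.S* (0.45 ± 0.11), a factor of maternal mRNA clearance, *kif2c.S* (0.45 ± 0.13) and *chek1.S* (0.46 ± 0.11). The lower ones of frog 2 were *cdc25b.L*, *cdc25b.S*, *cyp26a1.S*, *ccne2.L* and *ccne2.S*, which embryos also transcribe. None of 30 H3K4 methylation writers and erasers was called in either frog by limma (2 in frog 1 and 0 in frog 2 had an unadjusted p under 0.05), with medians of 0.09 and 0.02. Of the stress, p53 and apoptosis genes 0 of 55 were called in frog 1 by limma (9 had an unadjusted p under 0.05), and of 52 in frog 2, 3 were lower and 3 higher. The higher ones were *mdm2.L* (0.67 ± 0.18), *gadd45g.S* (0.68 ± 0.14) and the chaperone *hspa5.S* (0.45 ± 0.11), and the list medians were −0.01 and 0.08. Their calls were kept in 2, 5 and 3 of 6 fits with 1 library left out. The apoptosis genes *mcl1.L* and *mcl1.S* were called lower in frog 2, and 5 and 3 of 6 such fits kept these calls. Cell cycle and replication genes had 2 lower of 64 in frog 1, and 6 lower and 1 higher of 64 in frog 2, with medians of 0.06 and 0.04.

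**Figure D3:**
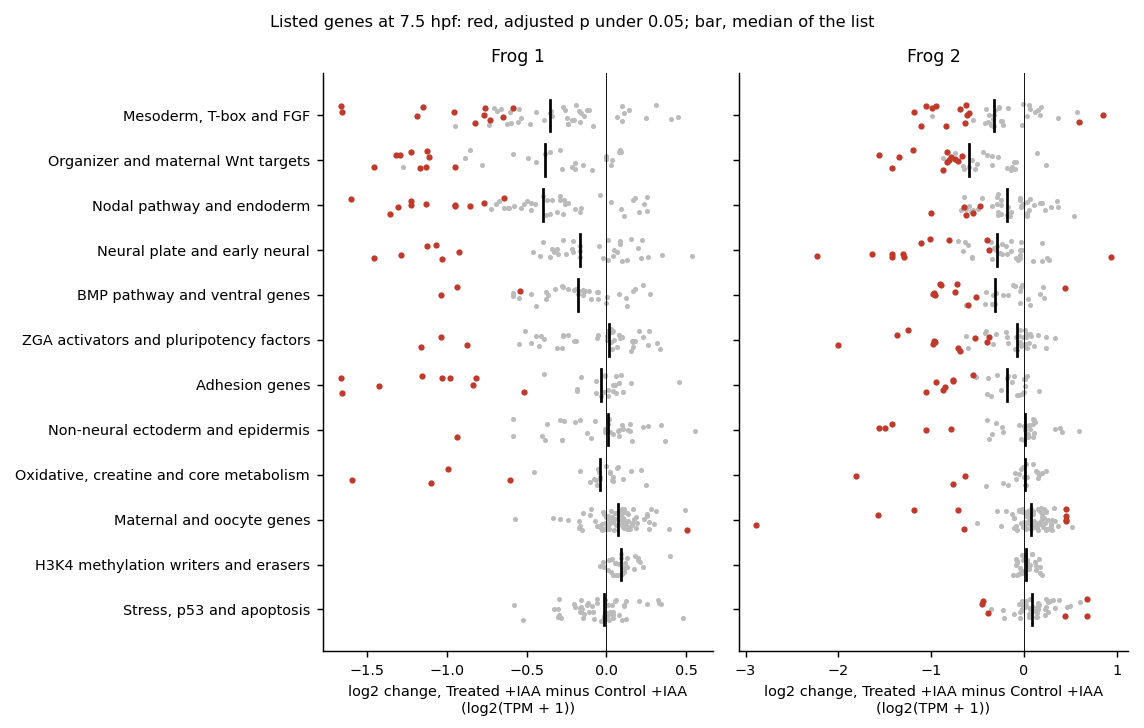
Log2 change of each tested member (points) of 12 gene lists at 7.5 hpf, treated +IAA minus control +IAA in log2(TPM + 1), in frog 1 (left) and frog 2 (right), with called genes in red and a black bar at the list median. The x axes differ between the panels. The medians of the organizer list were −0.39 and −0.59, and those of the H3K4 methylation list 0.09 and 0.02.

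The lower genes were mostly genes whose TPM rose in wt embryos over this period. In wt embryos 11738 genes of frog 1 (56.2%) and 1697 of frog 2 (8.37%) were called higher at 7.5 than at 5.5 hpf, against medians over all genes of 0.39 and −0.69. Ribosomal RNA held 20.6 to 37.4% of TPM in wt pools of frog 1 at 5.5 hpf and 5.78 to 7.83% at 7.5 hpf. In frog 2 it held 2.49 to 4.07% and 4.06 to 8.47%. Such a shift alone changes the share of all other genes, so a rise in TPM need not be new transcription. Of the lower genes, 115 of 121 in frog 1 and 337 of 379 in frog 2 were called higher at 7.5 than at 5.5 hpf in wt, as were 48 and 47 of the 48 shared genes. At 5.5 hpf, 46 of the 48 in frog 1 and 43 in frog 2 averaged under 1 TPM in wt pools. Genes that rose in wt embryos of both frogs by a log2 change of at least 1 numbered 1010, of which 607 are protein-coding. Of these 607, 83 (13.7%) were lower in frog 1 and 242 (39.9%) in frog 2, with medians of −0.28 and −0.44. The 403 other rising genes held 3 and 14 lower ones. Over all 1010, 8.51% were lower in frog 1 (3.56% without treated pool 1 and 5.45% without control pool 3) and 25.3% in frog 2 (14.9% without control pool 2 and 16.6% without treated pool 1 or treated pool 2). Of 500 genes that fell in wt embryos of both frogs, frog 1 had 0 lower and 5 higher, and frog 2 had 1 lower and 38 higher, with medians of 0.11 and 0.24.

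The shared genes were still coming on at 7.5 hpf in treated embryos. All 48 had a higher mean in treated pools at 7.5 than at 6.5 hpf in each frog, with medians of 0.28 TPM at 6.5 and 2.87 TPM at 7.5 hpf in treated pools of frog 1, and 0.54 and 8.43 TPM in control pools. In frog 2 the medians were 0.15 and 1.85 TPM in treated pools and 0.43 and 4.24 TPM in control pools. At 6.5 hpf, 0 of the 48 were lower in frog 1, where 21 genes of all were (0.101%), and 10 in frog 2, where 193 were (0.952%). *gatm.L* averaged 0.0394 ± 0.0682 TPM in treated and 0.205 ± 0.155 TPM in control pools at 6.5 hpf in frog 1. At 7.5 hpf it had 2.60 ± 1.74 TPM in treated and 9.15 ± 0.850 TPM in control pools (SD, n = 3 each). *wnt8a.L* was on earlier, and in frog 2 it averaged 0.467 ± 0.297 TPM in treated and 3.21 ± 0.640 TPM in control pools at 6.5 hpf (−1.53 ± 0.20, adjusted p = 1.2e-05). The test of the difference, the window effect at 7.5 minus that at 6.5 hpf, called 26 genes in frog 1, 24 of them negative, and 4 in frog 2. *a2m.S*, a gene for a broad protease inhibitor of the alpha-2-macroglobulin family, was the 1 gene called in both frogs (−1.24 ± 0.17 and −0.74 ± 0.13). It had 1.0, 1.57 and 1.07 TPM in treated pools, against 4.19, 3.62 and 5.42 TPM in control pools of frog 1 at 7.5 hpf. In frog 2, *a2m.S* had 0.353, 0.407 and 0.379 TPM in treated pools, against 1.40, 1.57 and 1.74 TPM in control pools. In frog 1 *gata6.L* (−1.66 ± 0.14), *akap12.L* (−1.46 ± 0.22) and *epha4.L* (−1.36 ± 0.21) were also called. The number of these calls in frog 1 fell to 10 without treated pool 1 and 13 without control pool 2, and in frog 2 it was 19, 8 or 7 without control pool 1, 2 or 3, 2 without treated pool 1 and 11 without treated pool 3. The 48 were chosen by their change at 7.5 hpf, and most were so low at 6.5 hpf that log2(TPM + 1) can hardly show a drop there. With a pseudocount of 0.1 the test called 0 genes in either frog. It therefore cannot tell a growing effect from this floor.

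**Figure D4:**
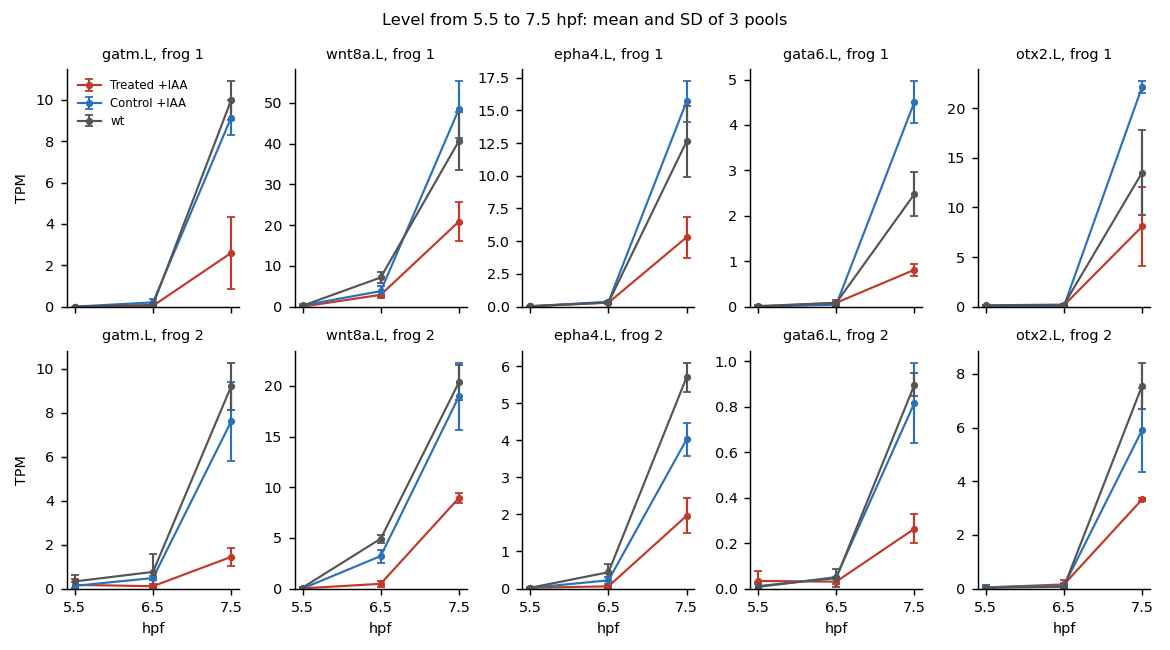
Level in TPM (mean and SD of 3 pools) at 5.5, 6.5 and 7.5 hpf for 5 genes, frog 1 above and frog 2 below, in treated +IAA, control +IAA and wt embryos. The y axes differ between panels. All 5 genes stayed low until 6.5 hpf or began to rise there, and at 7.5 hpf the treated mean is under the control mean in each panel.

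Without auxin, where the injected proteins persist, most of the shared genes were lower as well. The persistent comparison at 7.5 hpf uses other libraries and called 134 genes lower (0.641%) and 11 higher in frog 1. In frog 2 it called 445 lower (2.19%) and 2633 higher of 20277 tested, where the window called 259 higher. The median over all genes of frog 2 was 0.16 with 16.1% below 0, beside 0.03 and 39.2% in the window. Of the 48, 39 were called lower under persistent depletion in frog 1 and 46 in frog 2. All 48 were below 0 in both frogs, with medians of −0.88 and −0.75. *gatm.L* changed by −1.18 ± 0.18 and −1.71 ± 0.27 under persistent depletion, *lin28a.S* by −1.60 ± 0.23 and −1.73 ± 0.29, and *pcdh8.2.L* by −1.55 ± 0.23 and −0.97 ± 0.20. Of all lower genes of the window, persistent depletion also lowered 73 of 121 (60.3%) for frog 1 and 273 of 379 (72.0%) for frog 2. The test of window minus persistent effect called 2 genes in frog 1, *LOC121395068* (1.23 ± 0.22) and *LOC121399689* (1.54 ± 0.28), and 0 in frog 2 (limma; 458 and 1945 genes had an unadjusted p under 0.05). In frog 1 no gene was called without control pool 3, treated pool 1 or treated pool 3 and 1 without control pool 2, and in frog 2, 1 was called without control pool 1 or treated pool 2.

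Some of the same genes differed between injected controls and wt. Control embryos without auxin, which also serve the persistent comparison, share no library with the window comparison. They carried mRNA for Kdm5bci, H3.3wt and TIR1, so injection itself and these products cannot be told apart. Here, lower or higher on injection means these controls against wt. Against wt these controls had 307 lower (1.47%) and 569 higher genes (2.72%) in frog 1. The second clutch gave 206 lower (1.02%) and 288 higher genes (1.42%). Of the 48, 15 in frog 1 and 19 in frog 2 were lower on injection, and 2 and 0 were higher. Of all lower genes of the window, injection lowered 17 of 121 (14.0%) for frog 1 and 135 of 379 (35.6%) for frog 2, while 22 and 0 were higher. By list, the lower genes that were also lower on injection were 0 of 9 organizer genes in frog 1 and 3 of 12 in frog 2, 2 of 11 and 7 of 11 mesoderm genes, and 0 of 11 and 2 of 5 endoderm genes. Of the lower neural genes they were 3 of 6 and 5 of 11, of the BMP genes 1 of 3 and 5 of 9, and of the adhesion genes 0 of 9 and 5 of 7. The part of injection in the window result was not tested. *cdc25b.L*, a phosphatase that activates Cdk1, had 1.12, 1.09 and 7.06 TPM in treated pools, against 22.3, 32.8 and 17.3 TPM in control pools of frog 2 (−2.89 ± 0.37, adjusted p = 8.9e-06). The wt pools had 51.9, 55.5 and 52.6 TPM. In frog 1 it was low in treated and control embryos alike (1.5, 2.99 and 2.06 TPM and 2.82, 2.77 and 5.98 TPM) beside 65.6, 67.6 and 67.0 TPM in wt pools. This change was not called (−0.57 ± 0.39). *zic1.S*, a neural zinc-finger factor, repeated this order, with 3.77, 3.48 and 5.03 TPM in treated pools, against 19.2, 32.7 and 18.3 TPM in control pools of frog 2 and 36.1, 36.0 and 41.3 TPM in wt pools. In frog 1, *zic1.S* had 5.74, 5.57 and 4.56 TPM in treated pools, against 6.84, 6.37 and 8.78 TPM in control pools and 44.8, 41.0 and 38.1 TPM in wt pools. The retinoic acid hydroxylase gene *cyp26a1.S* (−1.58 ± 0.29 in frog 2, −0.01 ± 0.25 in frog 1) and the Hes-family gene *hes7.1.S* (−1.11 ± 0.20 in frog 2, 0.10 ± 0.14 in frog 1) had control pools at the treated level in frog 1 and between treated and wt in frog 2. Within frog 2, treated pool 3 had the lowest *hbg1.L* and the highest *cdc25b.L* of the treated pools, and control pool 2 the lowest *hbg1.L* and the highest *cdc25b.L* of the control pools. With 3 pools per group, a link between the injected amount and *cdc25b.L* was not tested. Other lower genes had controls at or above wt. In frog 1 this was so for *gata4.S*, *otx2.L* and *flrt3.L*. *otx2.L* had 3.83, 11.7 and 8.75 TPM in treated pools, against 21.7, 21.9 and 22.9 TPM in control pools and 18.4, 12.2 and 10.0 TPM in wt pools. *flrt3.L* had 20.7, 40.0 and 32.7 TPM in treated pools, against 58.4, 69.2 and 60.1 TPM in control pools and 46.8, 33.7 and 37.7 TPM in wt pools. In each of these 3 genes every control pool lay above every wt pool.

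**Figure D5:**
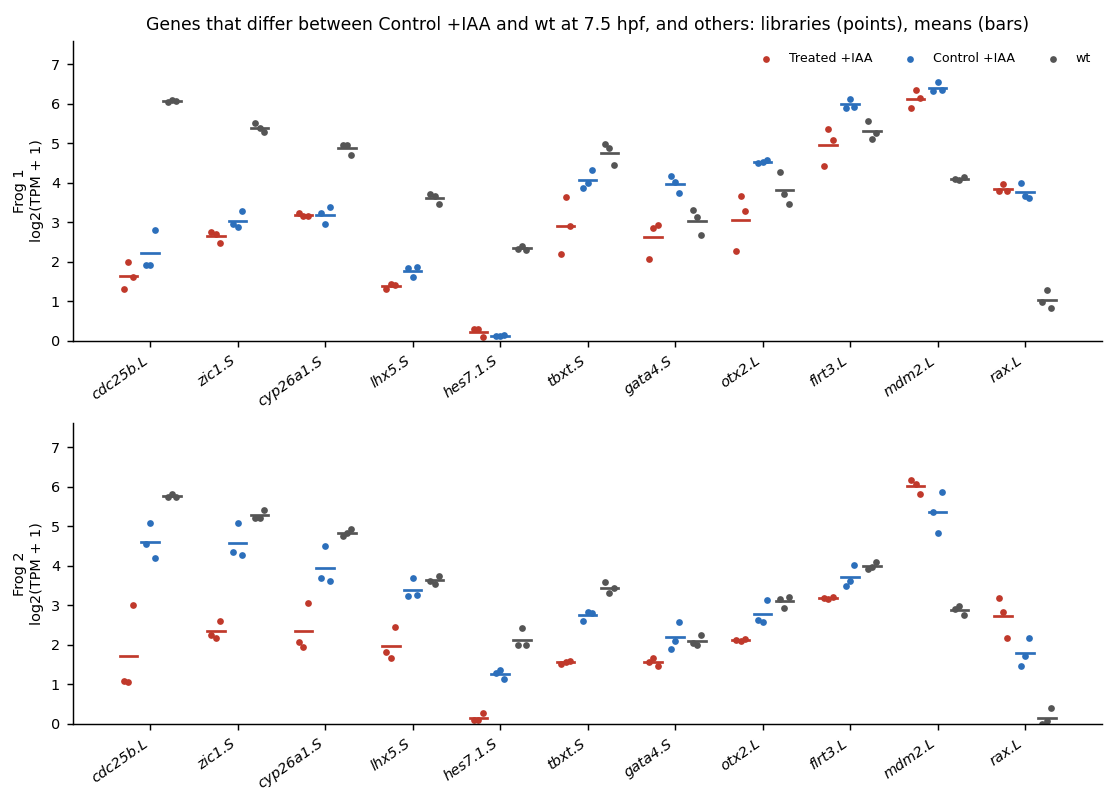
Level in log2(TPM + 1) of 11 genes, frog 1 above and frog 2 below, with 1 point per library and a bar at the group mean for treated +IAA, control +IAA and wt. From *cdc25b.L* to *hes7.1.S* the control pools sit near the treated pools in frog 1 and nearer wt in frog 2, while *mdm2.L* and *rax.L* are higher in injected than in wt embryos of both frogs.

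Higher genes were few in frog 1, and in frog 2 they overlapped with the genes higher on injection. The shared *LOC108712258* had 203, 149 and 255 TPM in treated pools, against 15.7, 17.3 and 16.0 TPM in control pools of frog 1. In frog 2, *LOC108712258* had 85.0, 83.5 and 42.8 TPM in treated pools, against 11.0, 11.0 and 11.6 TPM in control pools. The control pools were at the wt level (17.7, 16.6 and 18.4 TPM in frog 1 and 11.9, 9.84 and 9.43 TPM in frog 2). Its change was 3.52 ± 0.23 and 2.48 ± 0.19 at 7.5 hpf, beside 3.48 ± 0.23 and 2.52 ± 0.19 at 6.5 hpf. At 5.5 hpf the gene was already at 127 to 198 TPM in treated +IAA pools of frog 1, against 14.4 to 16.9 TPM in control +IAA pools. In frog 2 it was then at 119 to 167 TPM against 18.6 to 20.3 TPM. Its level also tracked that of *hbg1.L* in treated pools, a comparison made after its values were seen. At 7.5 hpf it was 0.981 to 1.06% of the *hbg1.L* level in treated pools of frog 1 and 1.03 to 1.11% in those of frog 2, while control pools had 0.147 to 0.239% and 0.223 to 0.598%. The part of the injected mRNA in this value was not tested. The other shared gene, *LOC398162*, had 265, 234 and 277 TPM in treated pools, against 193, 189 and 173 TPM in control pools of frog 1. In frog 2, *LOC398162* had 161, 161 and 142 TPM in treated pools, against 135, 109 and 103 TPM in control pools. With single libraries left out, *LOC398162* kept its call only without treated pool 2 in frog 1, and only without control pool 1 or treated pool 3 in frog 2. Frog 1 also had both copies of the BTG family gene *btg5.1*, with 67.7, 48.2 and 70.8 TPM in treated pools, against 30.7, 42.0 and 38.9 TPM in control pools for *btg5.1.S* (0.72 ± 0.15). *btg5.1.L* changed by 0.71 ± 0.15, and both copies were at 0.29 or less and not called in frog 2. Another family member, *btg3.S* (0.69 ± 0.14), was chosen after its values were seen. In frog 2, 86 of 259 higher genes (33.2%) were higher on injection, and in frog 1, 1 of 9. *mafb.S*, *cdkn2b.L*, *ptgds.S*, *plk2.L* and *sostdc1.S* were chosen from these after their values were seen. The transcription factor gene *mafb.S* had 48.2, 46.7 and 27.3 TPM in treated pools, against 17.6, 13.3 and 19.1 TPM in control pools and 6.00, 3.86 and 5.32 TPM in wt pools of frog 2 (1.21 ± 0.20). In frog 1 its treated and control pools overlapped (61.9, 68.2 and 72.5 TPM and 69.5, 70.8 and 64.5 TPM, beside 5.79, 4.03 and 4.62 TPM in wt pools). The cell cycle inhibitor gene *cdkn2b.L* (1.11 ± 0.24 in frog 2, −0.23 ± 0.17 in frog 1), the prostaglandin D synthase gene *ptgds.S* (1.19 ± 0.27, −0.01 ± 0.20), the kinase gene *plk2.L* (0.85 ± 0.24, −0.15 ± 0.18) and the BMP and Wnt inhibitor gene *sostdc1.S* (1.46 ± 0.28, 0.05 ± 0.30) had the same pattern. The H3.3-type histone gene *h3-5.L* was also higher in frog 2 (514, 523 and 281 TPM in treated pools, 226, 147 and 216 TPM in control pools and 62.7, 66.7 and 59.1 TPM in wt pools), except without control pool 2, control pool 3, treated pool 1 or treated pool 2. In frog 1 treated and control pools overlapped (266, 226 and 293 TPM and 322, 313 and 204 TPM, beside 78.3, 72.9 and 73.2 TPM in wt pools). H3.3 mRNA was injected into treated and control embryos, and how much of this value comes from it was not tested.

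The L and S copies of the shared genes tended to move together. Of the 48, 44 carry an L or S suffix, and the other copy was tested for 37 in frog 1 and 30 in frog 2. It was below 0 in 34 and 28 of these and called lower in 16 and 14, with medians of −0.68 and −0.64. For 6 genes the other copy is itself among the 48, as with both copies of *pcdh8.2* and of *has2*. Not every pair did so. The change of *akap12.S* was 0.24 in frog 1, that of *lpar2.S* −0.26 in frog 1 and 0.31 in frog 2, and that of *pygm.L* −0.15 in frog 1 and −0.06 in frog 2, none of them called. Copies this similar may share reads, and how the counting split such reads was not examined.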

How the data were processed

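RNA-seq of ribosomal-RNA-depleted libraries was quantified by the authors against the *Xenopus laevis* v10.1 transcriptome with kallisto 0.48, and the deposited unit is TPM per gene, in 1 table for each frog with 45 libraries each. R 4.3.2 and DESeq2 1.42.1 are also named in the submitters' processing notes. Read depth is not kept in TPM, so the depth of each library is unknown, and no counting interval was given. Totals ranged from 981704 to 996438 TPM per library in frog 1 and from 997844 to 998426 in frog 2. Entries of the same gene name were summed (2269 entries of 83 names in frog 1 and 2204 of 82 in frog 2), and 806 unnamed entries of frog 2, at most 0.0744% of TPM, were left out. Of 37504 and 36504 genes, 36783 and 35801 matched RefSeq. No pair of libraries held identical values.

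Genes that reached 1 TPM in 3 or more libraries of a frog were tested on log2(TPM + 1) with limma 3.58.1 (R 4.3.3), with 15 group means per frog, 30 residual degrees of freedom, a mean-variance trend and Benjamini-Hochberg adjustment over all genes of the frog. The frogs' tables were never fitted together. The SE and p-values rest on the spread between pools of sibling embryos, taken for each gene over all 15 groups of its frog. They do not measure the spread of the treated and control pools compared alone. For a gene still off at earlier stages, log2(TPM + 1) hardly varies there. Its SE and p can then understate the spread of the pools compared. The fit of the 6 libraries alone, which also has fewer degrees of freedom, called 0 of the 48 shared genes in frog 1 and 7 in frog 2. The script was tested on simulated data. The simulation gave a gene the same SD in every group, so it could not show what a spread that differs between stages does.

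The members and gene lists were chosen with earlier results of these data known. Named genes were, by rule, the 20 most negative and up to 10 most positive shared genes without overlap, 5 in each direction per frog at 5 TPM or more, list members called in a frog or given as examples of no call, their L or S copies, genes of the injected mRNAs and the 5 smallest p of each difference. The other shared genes were named because the frogs share them. Small RNAs that the rule picked are not described, since they are listed at 0 in some libraries. Alternatives were another pseudocount, other filters, other sets of libraries, rescaling by the median ratio over genes averaging at least 10 TPM, removal of rRNA, tRNA and globin genes, no trend, a replicate block and leaving out each library. The 18-library fit and the comparison of control embryos without auxin with wt were added after the data were seen. Promoter windows were not used here. Values of some shared genes are not reported here.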

Additional observations from a re-analysis of the deposited data

Results flagged for a closer look

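The window and the persistent effect at 7.5 hpf differed in 2 genes of frog 1 by the test of the difference itself, *LOC121395068* by 1.23 and *LOC121399689* by 1.54 on the log2 scale, window minus persistent. The window effect at 7.5 minus that at 6.5 hpf was called in 26 genes of frog 1. By adjusted p (limma) they were led by *gata6.L* (−1.66), *a2m.S* (−1.24), *LOC121395386* (1.61), *akap12.L* (−1.46) and *pkdcc.1.L* (−1.68), and *LOC121399689* (1.42) was called here too. In frog 2 there were 4 such genes, *dlc.L* (1.08), a Delta ligand of Notch, *tmprss9.S* (−0.84), a transmembrane serine protease, *a2m.S* (−0.74) and *LOC108701005* (−1.29). *tril.S* moved in opposite directions in the frogs, by −0.61 in frog 1 and 0.43 in frog 2, and this difference was not tested. It had 2.93, 4.99 and 3.78 TPM in treated pools of frog 1, against 5.93, 6.76 and 6.47 TPM in control pools, and 2.16, 2.64 and 1.94 TPM in treated pools of frog 2, against 1.2, 1.16 and 1.89 TPM in control pools.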

How the results depend on the processing

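Counts of called genes depended on the fit, and in frog 2 so did the balance of lower and higher genes, with higher genes outnumbering lower ones with median-ratio rescaling and without treated pool 3 (383 lower against 427 higher). None of the named called genes (93 in frog 1 and 138 in frog 2) reversed under any alternative. Several alternatives leave the log2 change as it was, so they could not reverse it. Of these genes, 2 and 11 kept their call in all. Of 1331 and 1976 single values, 418 and 477 fell short of the threshold. Lower genes in frog 1 (121) and frog 2 (379) numbered 12 and 222 with a pseudocount of 0.1, 15 and 142 with a mean of at least 5 TPM, 5 and 30 with the 6 libraries alone, and 240 and 643 with median-ratio rescaling, and in frog 1 183 without a filter and 7 with the 18 libraries at 7.5 hpf. Higher genes (9 and 259) numbered 4 and 120, 3 and 80, 3 and 11, 130 and 674, 35 and 467, and 3 and 152 under the same settings in that order, and 29 in frog 1 without rRNA, tRNA and globin genes. Leaving out single libraries gave 48 to 138 lower against 4 to 18 higher genes in frog 1, and 199 to 394 lower against 67 to 427 higher genes in frog 2.

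Genes called in both frogs (50) numbered 5 with a pseudocount of 0.1, 4 with a mean of at least 5 TPM, 1 with the 6 libraries alone, 146 with median-ratio rescaling, 3 with the 18 libraries, and 25 to 57 without single libraries. Of the 1010 rising genes, 8.51% and 25.3% were lower. A pseudocount of 0.1 gave 0.792% and 12.2%, a mean of at least 5 TPM 2.55% and 11.9%, the 6 libraries alone 0.0990% and 2.48%, and in frog 1 median-ratio rescaling 13.4% and the 18 libraries 0.396%. Without single libraries the share was 3.56 to 9.21% in frog 1 and 14.9 to 26.2% in frog 2. The window minus persistent test (2 genes in frog 1, 0 in frog 2) gave 25 and 11 genes without a filter, 0 in frog 1 with a pseudocount of 0.1, a mean of at least 5 TPM, only the libraries of the 2 effects compared, rRNA, tRNA and globin genes removed, or the replicate block, and 0 to 3 and 0 to 1 without single libraries. The 7.5 minus 6.5 hpf test (26 and 4) gave 0 and 0 with a pseudocount of 0.1 or a mean of at least 5 TPM, 50 and 42 without a filter, 7 and 33 with only the libraries compared, 110 and 44 with median-ratio rescaling, 21 in frog 2 with no trend, and 10 to 39 and 2 to 19 without single libraries. The fits on fewer libraries have fewer residual degrees of freedom and take the spread from those libraries only. The part of each in the lost calls was not tested. For the other settings the cause was not tested.

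Pools with the same number did not deviate together (correlations −0.06, −0.04 and 0.01 in frog 1 and −0.02, −0.02 and −0.01 in frog 2), so the numbers do not pair them. With a replicate block frog 1 had 120 lower against 8 higher genes and frog 2 had 369 lower against 254 higher genes, and 47 and 48 of the 48 shared genes were called. Depth is unknown, so that its limit on low genes cannot be given.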
